A study of Mus musculus with 6 samples.

Results

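The MHC class II and costimulatory genes of microglia were followed in mice without Lyl1 and in wild-type mice. They comprise 10 genes, chosen by symbol from the 48587 genes of the deposited count table. They are the class II chain genes H2-Aa, H2-Ab1 and H2-Eb1, the invariant chain gene Cd74 and the peptide editor genes H2-DMa and H2-DMb1. The class II transactivator gene Ciita, the lysosomal thiol reductase gene Ifi30 and the costimulatory genes Cd86 and Cd40 complete the set. All 10 were in the table, and 7 had enough reads to be tested. H2-Aa, Ciita and Cd40 did not and are given by their reads.

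Both groups were C57BL/6 mice at postnatal day 42, from which microglia, the resident macrophages of the brain, had been sorted, about 1000 cells per sample. The genotype was Lyl1 KO in 3 samples and wild type (WT) in 3 samples. Lyl1 is a gene of the basic helix-loop-helix family whose product regulates transcription in blood progenitors. The labels do not say how Lyl1 was disrupted, which gate was sorted, or whether a sample came from 1 animal, so the spread behind the p-values is that of these samples and can be technical in part.

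Class II molecules are made of an alpha and a beta chain that assemble in the endoplasmic reticulum around the invariant chain, which blocks the groove and directs the complex to late endosomes. There proteases trim the invariant chain, the H2-DM dimer exchanges its last fragment for a peptide, and the peptide-loaded molecule is shown to CD4+ T cells. Transcription depends on CIITA, which carries no DNA-binding domain of its own and docks on factors bound to the promoters. In the undisturbed brain microglia carry little class II, and the genes rise with interferon gamma, ageing and disease. CD86 gives T cells their second signal through CD28, and CD40 receives signals from T cells through CD40 ligand.

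Promoters of 5 of the 10 members were found in the set of RefSeq (GRCm38.p6) promoters used here. Those of H2-Ab1, Cd74, Ciita, Cd86 and Cd40 were not in that set and were not examined. Of those found, 3, those of H2-Aa, H2-Eb1 and H2-DMb1, held the paired arrangement of an X-box-like and a Y-box match. They are shown because these genes are known to share this control region, while their levels differed between samples as described further on. Capitals mark GNAACT, the core of the X box in these promoters, and TGATTGG, the Y box that holds the CCAAT sequence in reverse. Each line gives the 150 bases before the RefSeq start of the gene, 5′ to 3′ on the strand of the gene. For H2-Aa and H2-Eb1 that start is the one in GENCODE M21, whereas GENCODE M21 starts H2-DMb1 further upstream, so that 119 of its 150 bases lie inside the gene there.
H2-Aa (chr17:34287824-34287973, minus strand): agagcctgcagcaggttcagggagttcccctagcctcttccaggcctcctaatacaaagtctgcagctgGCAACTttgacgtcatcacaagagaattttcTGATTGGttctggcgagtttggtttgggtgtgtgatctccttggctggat
H2-Eb1 (chr17:34305717-34305866, plus strand): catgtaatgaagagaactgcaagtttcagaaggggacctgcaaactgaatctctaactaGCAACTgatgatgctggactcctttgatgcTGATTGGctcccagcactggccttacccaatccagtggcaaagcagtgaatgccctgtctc
H2-DMb1 (chr17:34153041-34153190, plus strand): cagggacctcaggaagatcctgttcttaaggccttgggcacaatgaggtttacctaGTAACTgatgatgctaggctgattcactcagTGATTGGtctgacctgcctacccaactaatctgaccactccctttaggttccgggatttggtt
Between the matches lay 25 bases in H2-Aa, 24 in H2-Eb1 and 25 in H2-DMb1. TGATTGG began 50 bases before the RefSeq start of H2-Aa, 61 before that of H2-Eb1 and 63 before that of H2-DMb1. The letters were chosen after these promoters had been read. On both strands and in windows of 300 bases around the start (250 before it and 50 after), 0.335% of 32851 promoters held GNAACT with TGATTGG no more than 40 bases after it, 7.82% held TGATTGG and 42.8% held GNAACT. The 2 RefSeq promoters of H2-DMa and the promoter of Ifi30 did not hold the pair. A match describes the letters only and does not show that a factor was bound.

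Total counts per sample ran from 19205948 to 27305558 in Lyl1 KO and from 12753945 to 27378614 in WT, and 12827 to 15652 genes had at least 1 read. The targeted gene checked the labels: Lyl1 was at 9.03, 12.0 and 14.3 CPM (read counts scaled to library size with TMM factors) in Lyl1 KO samples 1 to 3 and at 60.2, 55.6 and 40.02 CPM in WT samples 1 to 3, counting reads anywhere in the gene. Its log2 fold change was -2.14 (SE 0.98), and the edgeR quasi-likelihood test did not call it (unadjusted p = 0.0609, adjusted p = 0.9999). Exons of Nfix on the opposite strand overlap Lyl1. The 8 microglia markers summed to 38273 to 40682 CPM in Lyl1 KO and 36345 to 40067 CPM in WT. Xist was at 349 and 412 CPM in Lyl1 KO samples 1 and 3 and at 0.203 CPM in Lyl1 KO sample 2, against 0.382 to 1.41 CPM in WT, so female samples stood in the Lyl1 KO group only, and sex and genotype cannot be fully told apart.

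The genes of the classical class II chains were low and uneven in both genotypes. H2-Ab1, the beta chain of I-A (chr17:34257689-34269419, plus strand, GENCODE M21 on GRCm38, 6 exons), had 330, 744 and 878 reads in Lyl1 KO samples 1 to 3 and 271, 6 and 211 reads in WT samples 1 to 3. That was 14.5, 37.8 and 30.5 CPM in Lyl1 KO against 23.9, 0.238 and 10.1 CPM in WT. The genotypes overlapped, since Lyl1 KO sample 1 lay below WT sample 1, and WT sample 2 stood far below all others. The mean was 27.6 ± 11.9 CPM in Lyl1 KO and 11.4 ± 11.9 CPM in WT (SD, n = 3 each).

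H2-Aa, the alpha chain that pairs with the product of H2-Ab1 (chr17:34282744-34287823, minus strand, 5 exons), had 0, 351 and 143 reads in Lyl1 KO samples 1 to 3 and 1, 3 and 5 reads in WT samples 1 to 3. Lyl1 KO samples 2 and 3 thus stood above every WT sample at 17.8 and 4.97 CPM, while Lyl1 KO sample 1 was at 0, which with the 3 reads that a count of 0 allows is up to 0.132 CPM. This floor covers counting error only. The WT samples lay between 0.0882 and 0.238 CPM, at or near that limit. H2-Aa did not pass the filter on low counts of edgeR. DESeq2 on all genes with a read tested it (unadjusted p = 0.00498, adjusted p = 0.198) and did not call it. edgeR without a filter gave H2-Aa an unadjusted p of 0.106 and adjusted p = 0.768.

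H2-Eb1, the beta chain of I-E (chr17:34305867-34316674, plus strand, 6 exons), had 2, 145 and 1 reads in Lyl1 KO samples 1 to 3 and 5, 54 and 11 reads in WT samples 1 to 3. Lyl1 KO sample 2 and WT sample 2 were the highest of their groups, at 7.37 and 2.14 CPM, and Lyl1 KO samples 1 and 3 were the lowest of all 6. The genotypes overlapped, and the fitted log2 fold change of 1.26 (SE 2.00) turned to -3.95 without Lyl1 KO sample 2. C57BL/6 mice carry a defective gene for the alpha chain of I-E and show no I-E on their cells. That gene, H2-Ea-ps, had 0 reads in all 6 samples and was named after its values were seen, as was H2-Eb2, with 1 read in WT sample 2 and none elsewhere.

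Within a sample the chain genes did not stand at matched levels. Lyl1 KO sample 2 held the highest H2-Aa and H2-Eb1 and the highest H2-Ab1 of all samples, whereas Lyl1 KO sample 3 had the most H2-Ab1 reads of all samples beside 1 read of H2-Eb1. WT sample 2 had 54 reads of H2-Eb1 beside 6 of H2-Ab1. In bulk samples fewer cells that carry a transcript and less of it per cell cannot be told apart.

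**Figure D1:**
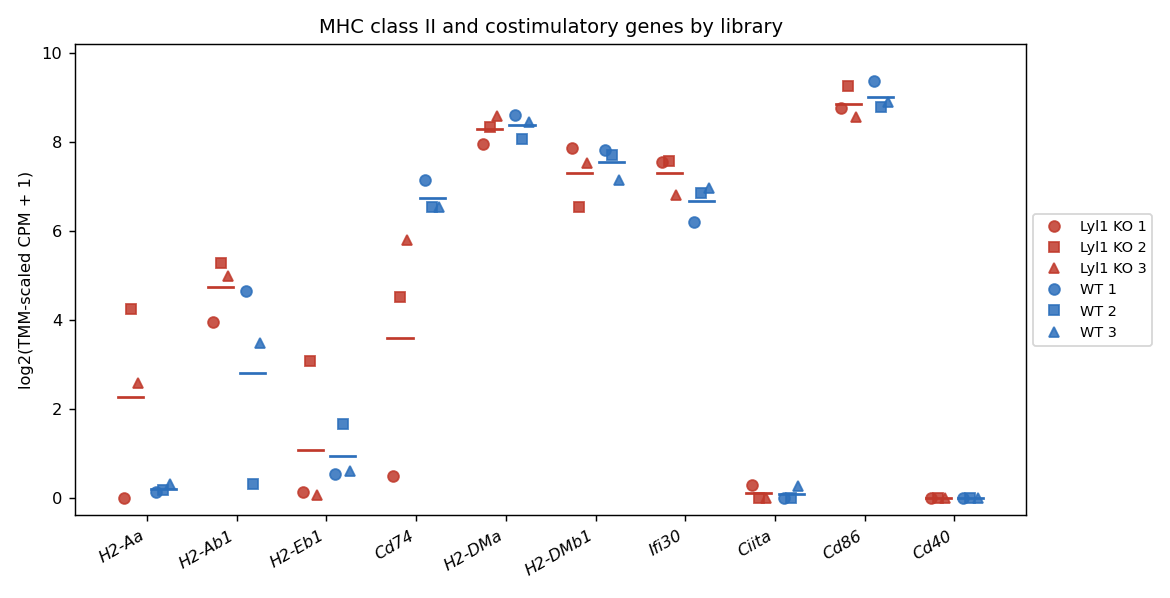
Level of each of the 10 members as log2(TMM-scaled CPM + 1), with Lyl1 KO samples in red and WT samples in blue, symbols for samples 1 to 3 and lines for the mean of the plotted values. Cd74 spreads from 0.396 to 54.6 CPM in the Lyl1 KO samples, all below the WT samples at 91.1 to 141 CPM, while H2-DMa, Cd86 and Ifi30 lie close together and Ciita and Cd40 lie at or near 0.

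Cd74 was the 1 member of the 7 tested whose genotypes did not overlap. Over all 10394 genes tested, 11.2% did not overlap either. The invariant chain gene, which encodes the chaperone and sorting signal of class II (chr18:60803848-60812652, plus strand, 9 exons), had 9, 431 and 1570 reads in Lyl1 KO samples 1 to 3 and 1602, 2309 and 1910 reads in WT samples 1 to 3. That was 0.396, 21.9 and 54.6 CPM in Lyl1 KO against 141, 91.7 and 91.1 CPM in WT. Every Lyl1 KO sample lay below every WT sample. Relative to their mean, the Lyl1 KO samples differed more among themselves than the WT samples did, while the SD in CPM was similar. The mean was 25.6 ± 27.3 CPM in Lyl1 KO and 108 ± 28.8 CPM in WT (SD, n = 3 each), 4.21-fold lower in Lyl1 KO. On the log2 scale the fitted change was -2.07 (SE 1.32, 95% interval -5.14 to 0.99). It was not called by the edgeR quasi-likelihood test, adjusted by Benjamini-Hochberg over all 10394 genes tested (unadjusted p = 0.156, adjusted p = 0.9999). An exact permutation test on CPM, 2-sided, gave p = 0.1, which is the lowest value a design of 3 against 3 can reach. Any gene without overlap has that value. Without Lyl1 KO sample 3 the log2 fold change was -3.27, and without Lyl1 KO sample 1, which had the 9 reads, it was -1.50. Among the samples with low Xist, Lyl1 KO sample 2 stood at 21.9 CPM and WT samples at 91.1 to 141 CPM, which with 1 Lyl1 KO sample gives no test. The microRNA gene Mir5107 lies within an exon of Cd74 on the same strand.

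The order of the samples by Cd74 was not their order by the chain genes. Lyl1 KO samples 1 to 3, at 0.396, 21.9 and 54.6 CPM of Cd74, had 14.6, 63.0 and 35.5 CPM summed over H2-Aa, H2-Ab1 and H2-Eb1, against 24.4, 2.503 and 10.8 CPM in WT samples 1 to 3, where Cd74 was higher. Per kilobase of transcript, Cd74 exceeded H2-Ab1 in Lyl1 KO sample 3 and in each WT sample, and lay below it in Lyl1 KO samples 1 and 2. In WT sample 2, Cd74 was at 65.1 CPM per kilobase and H2-Ab1 at 0.197.

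The genes of peptide editing and processing had more reads than the chain genes in every sample. H2-DMa (chr17:34119541-34139101, plus strand, 6 exons), the alpha chain of the peptide editor, was at 247, 321 and 384 CPM in Lyl1 KO samples 1 to 3 and at 390, 268 and 349 CPM in WT samples 1 to 3. The values of the genotypes interleaved. The log2 fold change was -0.08 (SE 0.28), and it turned positive with upper-quartile scaling or with library size alone, so no direction can be given. Part of its exons overlap Brd2 on the opposite strand, and its reads there are uncertain.

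H2-DMb1, the beta chain of the editor (chr17:34153072-34160230, plus strand, 6 exons), was at 232, 91.2 and 182 CPM in Lyl1 KO samples 1 to 3 and at 223, 207 and 139 CPM in WT samples 1 to 3. Lyl1 KO sample 2, the highest for the class II chains, was the lowest of all 6 for H2-DMb1. Its log2 fold change was -0.17 (SE 0.43). Of the 50-base windows of its transcript, 27.2% also occur in transcripts of another gene, most in its paralogue H2-DMb2, so the split of reads between these 2 genes is uncertain. H2-DMb2 itself, named after its values were seen, was at 1.06, 15.0 and 14.1 CPM in Lyl1 KO and at 9.96, 1.83 and 14.0 CPM in WT.

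Ifi30 encodes the thiol reductase that opens disulfide bonds of antigens in the lysosome (chr8:70762774-70766663, minus strand, 7 exons), and the gene 6330537M06Rik overlaps its exons on the opposite strand. Ifi30 was at 186, 188 and 111 CPM in Lyl1 KO samples 1 to 3 and at 72.9, 115 and 124 CPM in WT samples 1 to 3. Lyl1 KO samples 1 and 2 lay above all WT samples, and Lyl1 KO sample 3 lay among them. The mean was 161 ± 44.0 CPM in Lyl1 KO and 104 ± 27.4 CPM in WT (SD, n = 3 each), with a log2 fold change of 0.63 (SE 0.43) and a 95% interval of -0.37 to 1.63. edgeR gave an unadjusted p of 0.182 and adjusted p = 0.9999.

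The transactivator was at the limit of detection. Ciita (chr16:10480059-10528418, plus strand, 19 exons) had 5, 0 and 0 reads in Lyl1 KO samples 1 to 3 and 0, 0 and 4 reads in WT samples 1 to 3. The samples that had these reads, Lyl1 KO sample 1 and WT sample 3, were not those with the highest class II chain genes. Their 5 and 4 reads, 0.220 and 0.191 CPM, lay just above the 3 reads that a count of 0 allows. A difference between the genotypes was not detectable at this depth. The counts are per gene, so transcripts from the separate promoters of Ciita are not told apart, and exons of Dexi overlap it on the opposite strand.

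Of the costimulatory genes, Cd86 was among the highest members and Cd40 was not detected. Cd86, a ligand of CD28 and CTLA-4 (chr16:36603869-36666081, minus strand, 8 exons), was at 432, 606 and 373 CPM in Lyl1 KO samples 1 to 3 and at 663, 441 and 472 CPM in WT samples 1 to 3. The genotypes overlapped, with the lowest value in Lyl1 KO sample 3 and the highest in WT sample 1. The mean was 471 ± 121 CPM in Lyl1 KO and 525 ± 120 CPM in WT (SD, n = 3 each), with a log2 fold change of -0.16 (SE 0.28) and a 95% interval of -0.81 to 0.49. Cd40, the TNF receptor family member that T cells engage (chr2:165055627-165072948, plus strand, 9 exons), had 0 reads in all 6 samples, which allows up to 0.104 to 0.264 CPM per library.

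Set on a scale of CPM per kilobase of transcript, the order of the 6-sample means was H2-DMa at 197, Cd86 at 196, Ifi30 at 135, H2-DMb1 at 128, Cd74 at 47.4, H2-Ab1 at 16.1, H2-Aa at 3.44, H2-Eb1 at 1.51, Ciita at 0.0162 and Cd40 at 0. Each gene in that order overlapped with the next in its range over the 6 samples. H2-DMa and Cd86, with lowest values of 149 and 147 CPM per kilobase, stood above Cd74, with a highest value of 100, and above H2-Ab1, H2-Aa, H2-Eb1, Ciita and Cd40 in every sample.

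The counts of members past each threshold lay near the shares over all genes. edgeR called 0 of the 7 tested members and 0.00% of the 10394 genes at an adjusted p under 0.05. The disrupted gene Lyl1 was not called either. No tested member had an unadjusted p under 0.05, where 2.84% of all genes did. Of the 7 members to which DESeq2, run without a filter, gave an adjusted p, H2-Aa among them, it called 0, where 1.04% of 13116 genes were called. On the genes that edgeR tested it called 0 of 6 members and 0.523% of 9937 genes. It gave H2-Eb1 no p in either fit. In other settings Cd74 had an unadjusted p of 0.0270 with the newer dispersions of edgeR and of 0.0479 with limma-voom, at adjusted p = 0.719 and adjusted p = 0.722. Without Lyl1 KO sample 1, which had 0 reads of H2-Aa, edgeR tested H2-Aa and gave an unadjusted p of 0.0377 and adjusted p = 0.9999. There H2-Aa passed the filter only through its reads in Lyl1 KO samples 2 and 3, so this p gives no support for a difference. The genotypes did not overlap for 1 of the 7, Cd74, and for 11.2% of all genes. By the sign of the fit 3 members were higher and 4 lower in Lyl1 KO, with a median log2 fold change of -0.08 beside -0.03 over all genes. These counts run over members that passed a filter on low counts.

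**Figure D2:**
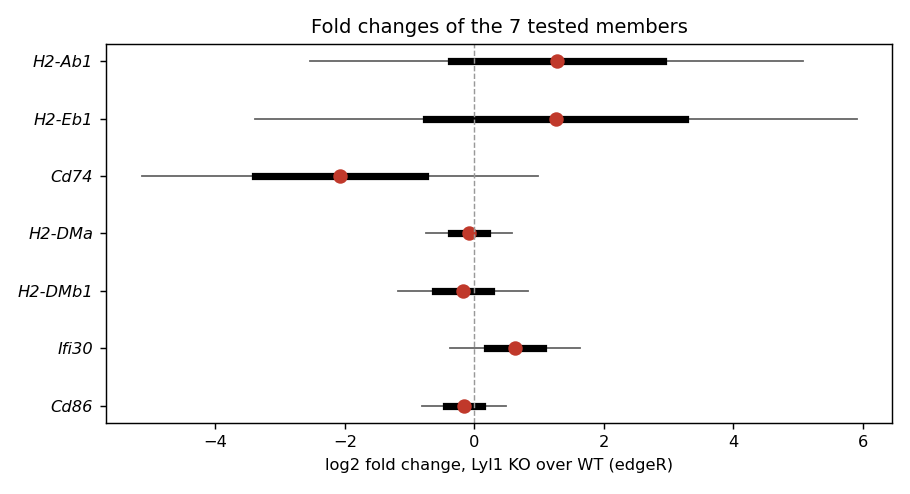
Log2 fold changes of the 7 tested members, Lyl1 KO over WT, from the edgeR fit; points are estimates, thick bars 1 standard error and thin bars 95% intervals. Each interval spans 0, with narrow ones for Cd86 and H2-DMa and wide ones for H2-Eb1, H2-Ab1 and Cd74.

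The spread between samples set what could be told apart. The coefficients of variation of H2-DMa, Cd86 and Ifi30 were 21.6%, 25.7% and 27.3% in Lyl1 KO and 18.5%, 22.9% and 26.3% in WT. For H2-DMb1 it was 42.4% in Lyl1 KO and 23.4% in WT, and for Cd74 106% in Lyl1 KO and 26.6% in WT. The chain genes varied in both genotypes, H2-Ab1 by 43.1% in Lyl1 KO and 104% in WT, and H2-Eb1 by 169% in Lyl1 KO and 92.7% in WT. Over the 2848 tested genes at a mean of 50 to 200 CPM, where Cd74 falls, the median was 36.5% in Lyl1 KO and 56.9% in WT. Over the 4474 genes at 10 to 50 CPM, where H2-Ab1 falls, it was 67.8% in Lyl1 KO and 98.4% in WT. Single libraries near 0 were common among these genes. At 10 to 50 CPM, 63.9% of genes lay under 1 CPM in at least 1 library, and 32.8% did so in WT sample 2, the sample in which H2-Ab1 was at 0.238 CPM. At 50 to 200 CPM, 13.3% lay under 1 CPM in at least 1 library, and 1.48% did so in Lyl1 KO sample 1, where Cd74 was at 0.396 CPM. The part of such losses in the result for Cd74 was not tested.

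**Figure D3:**
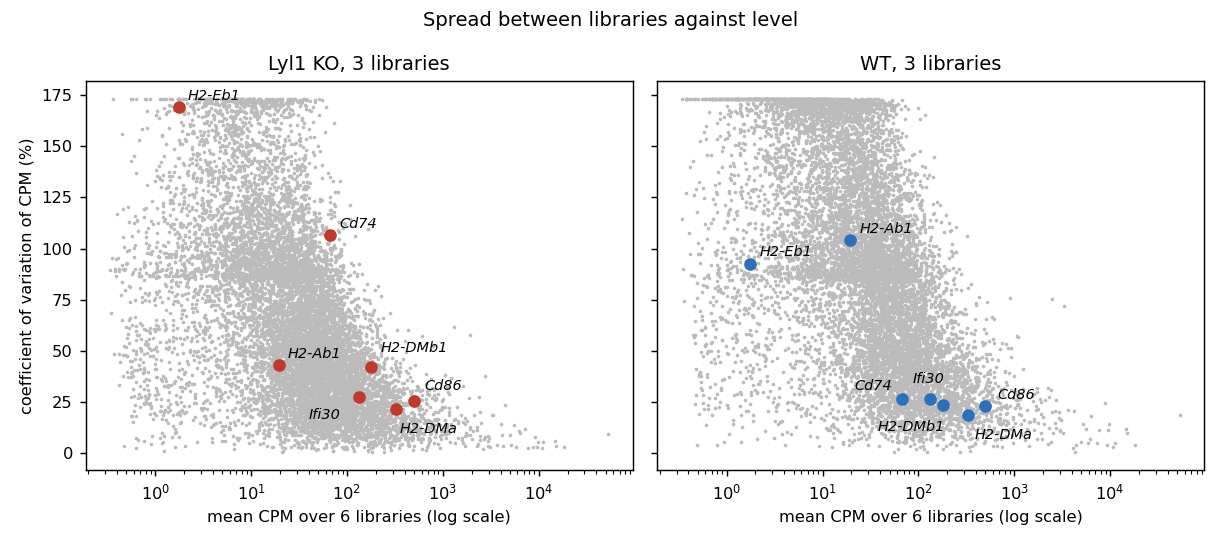
Coefficient of variation of CPM over 3 libraries (percent) against mean CPM over 6 libraries (log scale) for all genes tested (grey) and the 7 tested members, Lyl1 KO left and WT right. Cd74 lies high among genes of its level in Lyl1 KO, at 106%, and low in WT, at 26.6%.

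Among genes at a mean of 20 CPM or more, the pattern over the 6 samples was most like that of Cd74 in Impa1, Eef1e1, Cpsf7, Pno1 and Rgl1, by the mean absolute difference of log2(CPM + 1) centred on each gene's mean. These differences were 0.32, 0.35, 0.36, 0.38 and 0.39, the smallest of 6518 genes. Impa1, an inositol monophosphatase, was at 0.0440, 19.8 and 49.4 CPM in Lyl1 KO samples 1 to 3 and at 160, 57.8 and 45.9 CPM in WT samples 1 to 3. The other members, not held to the limit of 20 CPM, differed from Cd74 by 1.65 to 2.61 on that scale. The chain genes H2-Aa and H2-Ab1 were the farthest at 2.61 and 2.54. Cd40, with 0 reads in every sample, differed by 1.78, the value of any gene that does not vary.

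The neighbouring steps of the pathway were followed in 5 lists. Each is to be read beside all genes tested, of which 2.84% had an unadjusted p under 0.05 and 11.2% did not overlap. Of 14 genes of further class II chains, editors and processing enzymes, 12 were tested, of which 3 were higher and 9 lower by sign, with a median log2 fold change of -0.21. At an unadjusted p under 0.05 there was 1, Ctsl, a cathepsin of late endosomes, at 1403 ± 140 CPM in Lyl1 KO and 2063 ± 622 CPM in WT (SD, n = 3 each). Ctss, the cathepsin that makes the last cut in the invariant chain, was at 10520, 10019 and 10113 CPM in Lyl1 KO and at 11621, 11437 and 10918 CPM in WT, without overlap. Its log2 fold change was -0.15 (SE 0.09) and its adjusted p in edgeR 0.9999. March8, a ubiquitin ligase that acts on class II, also did not overlap and was named after its values were seen, at 35.3, 24.2 and 23.6 CPM in Lyl1 KO and at 0.264, 5.16 and 18.1 CPM in WT. Ctss and March8 were 2 of 12 without overlap, beside the 11.2% of all genes. March1, of the same list, was also named after its values were seen and had the opposite sign to March8, with overlap. It was at 90.4, 161 and 68.3 CPM in Lyl1 KO and at 367, 107 and 112 CPM in WT (log2 fold change -0.88, SE 0.61). Ctsb was at 5055 ± 695 CPM in Lyl1 KO and 6084 ± 710 CPM in WT, and Ctsd, the most abundant of the list, at 14081 ± 834 and 15299 ± 1777 CPM (SD, n = 3 each). The H2-DO genes, whose product restrains H2-DM, were named after their values were seen: H2-Oa was at 11.6, 71.9 and 46.5 CPM in Lyl1 KO and at 146, 60.1 and 47.8 CPM in WT, lowest in Lyl1 KO sample 1. H2-Ob was at 35.4, 58.5 and 58.6 CPM in Lyl1 KO and at 10.8, 38.8 and 67.2 CPM in WT, lowest in WT sample 1.

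Of 11 transcription factors and coactivators of class II promoters all were tested, 6 higher and 5 lower by sign, none at an unadjusted p under 0.05, with a median of 0.06. Ep300, an acetyltransferase, was at 96.8 ± 37.5 CPM in Lyl1 KO and 24.8 ± 29.5 CPM in WT (SD, n = 3 each), without overlap. Rfxank, a subunit of the factor that binds the X box, was at 23.8 ± 9.31 and 57.6 ± 32.0 CPM (SD, n = 3 each), with overlap. Nfyb, a subunit of the factor that binds the Y box, was at 14.6, 0.203 and 20.3 CPM in Lyl1 KO and at 1.94, 84.3 and 19.3 CPM in WT. The most abundant of the list, the coactivator Crebbp, was at 87.4 ± 32.1 CPM in Lyl1 KO and 73.6 ± 33.2 CPM in WT (SD, n = 3 each).

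Of 12 genes from interferon gamma to Ciita, 11 were tested, 7 higher and 4 lower by sign, none at an unadjusted p under 0.05, with a median of 0.05. Ifngr2, the second chain of the interferon gamma receptor, was at 374, 524 and 381 CPM in Lyl1 KO and at 284, 286 and 304 CPM in WT, without overlap. Its log2 fold change was 0.55 (SE 0.25) and its unadjusted p 0.0591. Ifngr1, the ligand-binding chain and the most abundant of the list, was at 1708 ± 248 CPM in Lyl1 KO and 1686 ± 359 CPM in WT (SD, n = 3 each). The kinase gene Jak1 was at 459, 111 and 136 CPM in Lyl1 KO and at 22.5, 57.8 and 174 CPM in WT, and Usf1, a factor of the interferon-responsive promoter of Ciita, at 72.4 ± 2.22 CPM in Lyl1 KO and 125 ± 57.7 CPM in WT (SD, n = 3 each).

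Of 17 other costimulatory and coinhibitory ligands, 9 were tested, 5 higher and 4 lower by sign, with a median of 0.23, and 5 had 0 reads in every sample. At an unadjusted p under 0.05 there was 1, Icam1, the ligand of LFA-1, at 348, 263 and 338 CPM in Lyl1 KO and at 226, 180 and 194 CPM in WT, without overlap. Its log2 fold change was 0.66 (SE 0.28), with an unadjusted p of 0.0455 and adjusted p = 0.9999 in edgeR. Lgals9 was at 706 ± 66.3 CPM in Lyl1 KO and 570 ± 104 CPM in WT, Cd48 at 163 ± 75.0 and 257 ± 144 CPM, and Vsir, the checkpoint protein VISTA and the most abundant of the list, at 2998 ± 226 and 3058 ± 327 CPM (SD, n = 3 each). Cd80, the other ligand of CD28, was named after its values were seen and was at 50.2, 61.5 and 13.5 CPM in Lyl1 KO and at 0.176, 34.1 and 23.6 CPM in WT.

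Of 12 genes of CD40 signalling, 11 were tested, 5 higher and 6 lower by sign, none at an unadjusted p under 0.05, with a median of -0.37. Tnfaip3, a brake on NF-kB, was at 151, 74.6 and 66.0 CPM in Lyl1 KO and at 1.76, 0.0397 and 26.4 CPM in WT, without overlap (log2 fold change 3.37, SE 1.76). Relb, an NF-kB subunit, also did not overlap and was named after its values were seen, at 43.3, 1.32 and 14.3 CPM in Lyl1 KO and at 50.8, 43.9 and 69.9 CPM in WT. Traf3, an adaptor of CD40, was at 0.660, 140 and 18.2 CPM in Lyl1 KO and at 0.441, 4.01 and 8.25 CPM in WT. The kinase gene Chuk was at 118 ± 51.2 CPM in Lyl1 KO and 63.6 ± 46.6 CPM in WT, and the adaptor gene Traf2 at 80.1 ± 18.3 and 103 ± 54.5 CPM (SD, n = 3 each).

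**Figure D4:**
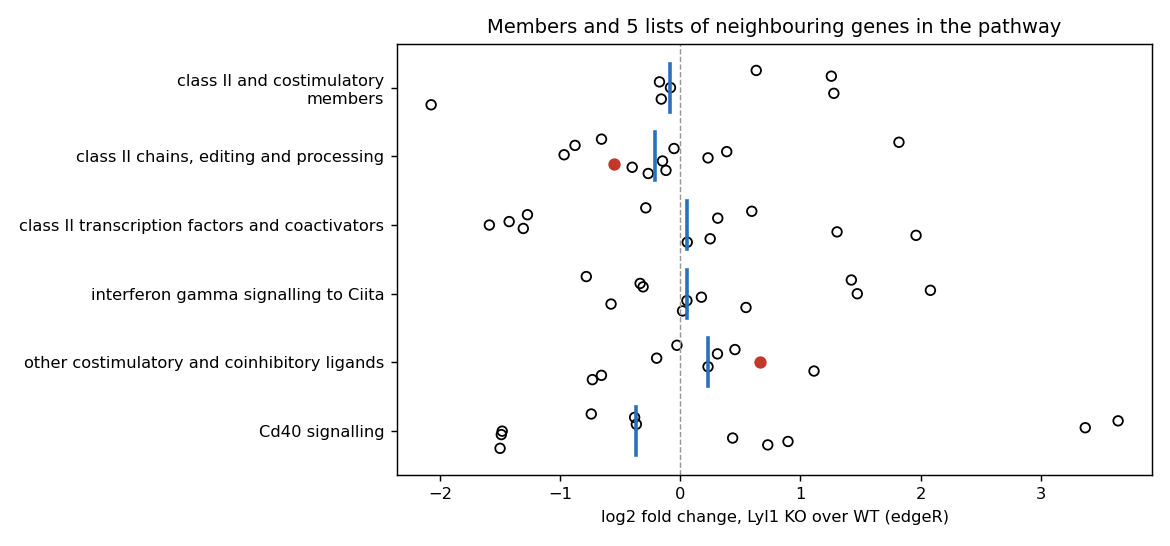
Log2 fold changes, Lyl1 KO over WT, of the tested members (top) and of the tested genes of 5 lists of the pathway; filled red points had an unadjusted p under 0.05, open points did not, and blue lines are medians. The filled points are Ctsl and Icam1, and the medians run from -0.37 to 0.23.

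Other cells of the brain and its borders carry class II at high levels, so their markers were read in the same samples. The 10 dendritic cell markers summed to 31.1, 30.5 and 52.5 CPM in Lyl1 KO samples 1 to 3 and to 231, 111 and 90.6 CPM in WT samples 1 to 3, without overlap and lower in Lyl1 KO, as was Cd74. The part of dendritic cells in the result for Cd74 was not tested. Cd209a, Ccr7 and Clec10a were at 0 in all 6 samples. Batf3 was even, at 28.003 to 33.9 CPM in Lyl1 KO and 31.1 to 39.9 CPM in WT. Apart from Batf3, the genes with most reads in WT samples 1 and 3 were other ones than in WT sample 2. Itgax, Klrd1 and Zbtb46 had 1352, 651 and 261 reads in WT sample 1 and 523, 292 and 140 in WT sample 3, against 191, 267 and 2 in Lyl1 KO sample 3 and 1 or none in Lyl1 KO samples 1 and 2. WT sample 2 had 0, 1 and 0 reads of Itgax, Klrd1 and Zbtb46. Xcr1, Clec9a and Flt3, of the type 1 conventional dendritic cell lineage and its precursors, had 1251, 413 and 259 reads in WT sample 2. These genes had 50, 0 and 59 reads in WT sample 3 and none in WT sample 1. In the Lyl1 KO samples Xcr1 had 18 reads or fewer, Clec9a none and Flt3 30 to 67. WT sample 2 had 3 reads of H2-Aa and 6 of H2-Ab1, and 32.8% of tested genes at 10 to 50 CPM lay under 1 CPM in it. The part of dendritic cells in the levels of the chain genes was not tested.

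The 8 markers of border-associated macrophages summed to 3.61, 0.457 and 10.3 CPM in Lyl1 KO and to 95.8, 0.437 and 29.0 CPM in WT, most of it Mrc1, the mannose receptor gene, with 79, 3 and 293 reads in Lyl1 KO and 1082, 8 and 421 in WT. Clec12a was at 0 throughout, and Cd163, Lyve1, Cbr2 and F13a1 had 3 reads or fewer in every sample. Ms4a7 and Pf4 had 113 and 73 reads in WT sample 3 and 3 reads or fewer elsewhere. WT sample 2, low for these markers, had Cd74 at 91.7 CPM. The part of border-associated macrophages in the result for Cd74 was not tested.

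The 7 monocyte markers summed to 6.96, 0.254 and 4.94 CPM in Lyl1 KO and to 0.705, 0.358 and 0.191 CPM in WT, with Ccr2 at 155, 3 and 93 reads in Lyl1 KO and at 1, 2 and 0 in WT. Ifitm6 was at 0, and Ly6c2, Plac8, S100a4 and Chil3 had 22 reads or fewer in any sample. The 7 B cell markers summed to 1092 to 1352 CPM in Lyl1 KO and 973 to 1495 CPM in WT, most of it Ighm. Cd79b was at 73.5, 132 and 79.9 CPM in Lyl1 KO and at 131, 104 and 54.5 CPM in WT. Cd22 had 41, 11 and 756 reads in Lyl1 KO and 0, 0 and 285 in WT, Cd79a had 29 reads in WT sample 3 and none elsewhere, and Ms4a1 and Pax5 had 1 read or none in each sample. Neutrophil markers summed to 0.132, 0.203 and 0.487 CPM in Lyl1 KO and to 0, 3.26 and 0.477 CPM in WT, with S100a9 at 82 reads in WT sample 2, S100a8 and Ngp at 0 throughout, and Camp, Mpo and Retnlg at 8 reads or fewer. Red blood cell genes summed to 227, 65.2 and 0.243 CPM in Lyl1 KO samples 1 to 3, in the reverse order of Cd74 there, and to 1.23, 0.159 and 0.238 CPM in WT. The highest of them, the beta globin gene Hbb-bs, had 2892, 752 and 1 reads in Lyl1 KO and 8, 1 and 2 in WT, and Hba-a1, Hba-a2, Hbb-bt and Alas2 were likewise highest in Lyl1 KO sample 1. Their part in the levels of Cd74 was not tested. T and NK cell markers had 2 reads or fewer in any sample. Neuron markers had 7 reads or fewer, apart from Rbfox3 with 158 in Lyl1 KO sample 1. The sums of astrocyte, oligodendrocyte and endothelial markers, led by Slc1a3, Cnp and Pecam1, differed less than 2-fold between genotype means.

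**Figure D5:**
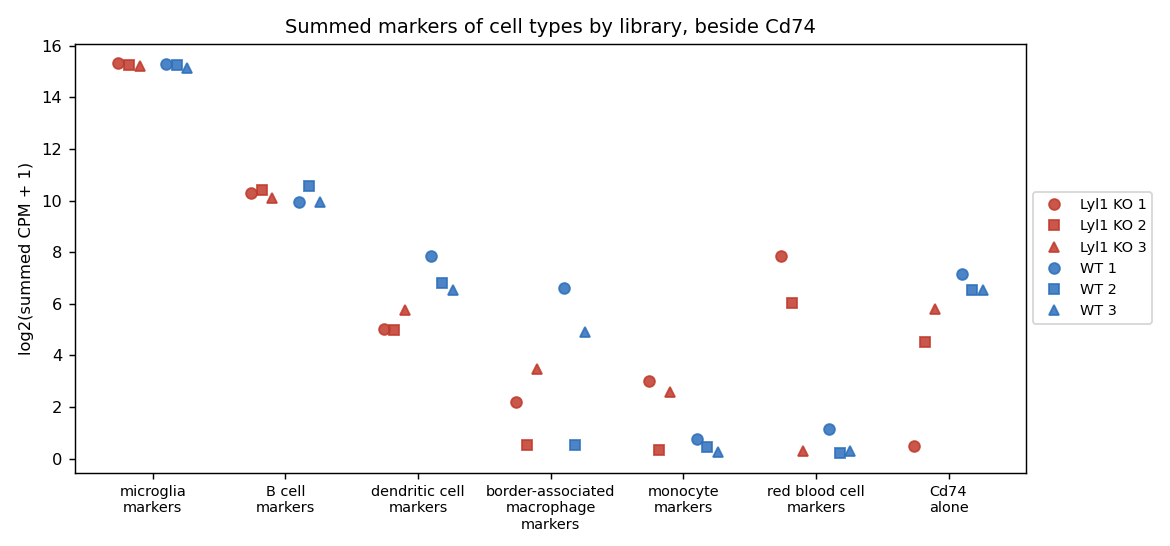
Summed CPM of marker lists, as log2(sum + 1), in Lyl1 KO samples (red) and WT samples (blue), with Cd74 alone at the right. Microglia and B cell sums are even, dendritic cell sums are lower in all 3 Lyl1 KO samples (30.5 to 52.5 CPM) than in WT (90.6 to 231 CPM), and red blood cell sums are high in Lyl1 KO samples 1 and 2.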

How the data were processed

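Polyadenylated RNA of about 1000 sorted microglia per sample was sequenced from 3 Lyl1 KO and 3 WT samples. The values the authors deposited are raw read counts, 1 row per gene symbol. Listed in the submitters' processing notes, without role or order, are the build GRCm38 and the tools featureCounts 1.5.1, Subread, STAR 2.5.2b, limma 3.28.21 and CASAVA 1.8.2. Which annotation and strand setting were used is not given in the sources used here. Per the labels' protocols, cDNA made with a SMARTer low-input kit, a kind that does not mark strand, was PCR-amplified before tagmentation. No molecular identifiers are named, so PCR copies may be counted as reads, and floors cover counting error only.

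The table held 48679 rows, of which 92 spike-in rows were left out. In R 4.3.3, edgeR 4.0.16 filterByExpr (minimum count 10, minimum total 15) kept 10394 genes, scaled by TMM and compared with the quasi-likelihood F test and Benjamini-Hochberg adjustment (threshold 0.05), with genotype alone in the model. Standard errors are the log2 fold change divided by the square root of F. Levels are TMM-scaled CPM, per kilobase by the GENCODE M21 transcript with the longest coding sequence. Alternatives used limma 3.58.1 and DESeq2 1.42.0. Depth limits precision: 3 reads, the most that a count of 0 allows, are 0.104 to 0.264 CPM.

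Members and lists were chosen with earlier results of these data known. The rule for named genes took all members, Lyl1, and of each pathway list the 3 smallest p, any other at an unadjusted p under 0.05 and the most abundant gene. Of each marker list it took the most abundant gene, and all markers where the summed means differed more than 2-fold. It also took the 5 genes most like Cd74. Single values of some markers are not reported here.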

Additional observations from a re-analysis of the deposited data

How the results depend on the processing

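With 18 alternatives, including leaving out each sample in turn, 0 members were called in any. Over all genes 0 were called except with no filter (8), DESeq2 on all genes with a read (137) and DESeq2 on the genes edgeR tested (52). The fit with the replicate number as a block gave 171 genes at an unadjusted p under 0.05, against 295 without it. Deviations of same-numbered samples correlated at 0.0143, -0.00288 and 0.0327 over genes. With 3 samples per group these values cannot settle whether a shared number marks a pairing. The block called 0 genes, as did the fit without it, so the calls do not settle it either. Other counts at an unadjusted p under 0.05 more than 1.5 times from 295 were 1663 with no filter, 709 with the newer edgeR dispersions, 663 with limma-voom, 975 and 626 with DESeq2 on all genes and on the genes edgeR tested, and 1158 without WT sample 3.

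Cd74 kept its sign in all 18 alternatives (log2 fold change from -3.98, with genes detected as a covariate, to -1.50; adjusted p from 0.667 to 1), as did H2-Ab1 (0.73 to 2.89) and Ifi30 (0.44 to 0.88). The lowest value of H2-Ab1 was without WT sample 2 and that of Ifi30 without WT sample 1. H2-Eb1 turned to -1.47 with the replicate block, -1.27 with limma-voom and -3.95 without Lyl1 KO sample 2, within -3.95 to 2.38 over the samples left out, and had no value with the filter at 5 CPM. H2-DMa turned to 0.058 with upper-quartile scaling, 0.027 with library size and 0.051 without WT sample 1, and ran from -0.24 to 0.069 over the samples left out. H2-DMb1 ran from -0.48 to 0.14 and Cd86 from -0.36 to 0.056 over the samples left out, and Cd86 was at 0.13 and H2-DMb1 at -0.996 with Xist as a covariate. Upper-quartile scaling put the median of all genes at 0.09, against -0.03 with TMM. The cause of these turns was not tested. Depth limits Ciita, Cd40 and H2-Aa, whose levels in most libraries lay at or near the floor.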
